A study of Homo sapiens with 6 samples.

Results

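The 6 genes described here are long noncoding RNAs (lncRNAs) with known regulatory roles: MALAT1, NEAT1, KCNQ1OT1, OIP5-AS1, NORAD and TUG1. They were chosen by name from a table of 58735 genes, of which 14994 have a lncRNA biotype, and each name matched 1 gene. RNA was sequenced from HEK293, a cell line of human embryonic kidney origin, with stable expression of 1 of 2 mutant forms of the focal adhesion protein tensin 2 (TNS2). In Y483E cells a tyrosine of TNS2 was replaced by glutamate, which is used to resemble a phosphorylated residue. In Y483F cells the same tyrosine was replaced by phenylalanine, which cannot be phosphorylated. Each line had 3 libraries, replicates 1, 2 and 3, which the submitters numbered 1, 4 and 5. What the numbers stand for is not stated, and no library of cells without a TNS2 transgene was compared here. The series speaks of 2 cell lines and gives no count of clones, so the effect of a mutation and other differences between the lines cannot be told apart. The replicates are called biological without mention of separate cultures, so p-values measure the spread between these libraries.

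MALAT1 is retained in nuclear speckles, bodies rich in splicing factors. NEAT1 is the scaffold of paraspeckles, nuclear bodies that hold RNA-binding proteins, and only its long form builds them. KCNQ1OT1 is made from the paternal chromosome and silences neighbouring imprinted genes. OIP5-AS1, also called cyrano, carries a site that directs the decay of the microRNA miR-7. NORAD is a mostly cytoplasmic RNA that binds Pumilio proteins and is known for its part in keeping chromosomes stable. TUG1 is found in nucleus and cytoplasm and has been tied to repressive chromatin complexes.

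Sequences bear on 3 of these roles and on how the RNAs could be captured by poly-T beads, which select RNA with a run of A. They were read from GENCODE 29 transcripts (GRCh38) at gene coordinates that equal those of the deposited table for all 6 genes. In NORAD, TGTANATA, the motif bound by Pumilio proteins, occurs 15 times on the sense strand of its 5339 bases and 1 time on the other strand, with no overlap between elements. The N base was T in 10 elements, A in 4 and C in 1. Of 4358 annotated transcripts within 10% of its length, 42.9% hold at least 1 element and 0.0688% hold at least 15. Elements with T or A at N, and a pair that starts 9 bases apart, are shown with the element in capitals, since NORAD is the member with the most regular line difference. They lie on the minus strand at chr20:36050185-36050208, chr20:36049705-36049728, chr20:36049504-36049527 and chr20:36049495-36049518.
NORAD element at 761: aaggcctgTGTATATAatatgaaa
NORAD element at 1241: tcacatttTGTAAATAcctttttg
NORAD element at 1442: cttatctgTGTATATAgtgtacat
NORAD element at 1451: gtatatagTGTACATAaaggacag

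In OIP5-AS1, the match to the miR-7-5p seed (bases 2 to 8) occurs 3 times in its longest transcript of 8829 bases, a count that 3.72% of 1235 transcripts of like length reach. The match and the seed are in capitals. The site that starts at base 2887, on the plus strand at chr15:41300570-41300599, also pairs with the rest of miR-7-5p in an unbroken run of 14 bases after a shift of 2. The longest such run was 4 bases at the site at 724 (chr15:41298407-41298436) and 3 at the site at 8167 (chr15:41305850-41305879). The miRNA sequence is RefSeq's (GRCh38.p14).
hsa-miR-7-5p: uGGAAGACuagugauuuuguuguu
OIP5-AS1 miR-7 seed match at 724: gacttcagggtttaaaaaaaatGTCTTCCa
OIP5-AS1 miR-7 seed match at 2887: taagaacaacaaaatcaccaatGTCTTCCa
OIP5-AS1 miR-7 seed match at 8167: tgtcatatcctgaatatagtttGTCTTCCc

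MALAT1 and long NEAT1 are known to end without a poly-A tail, at a genome-encoded A-rich stretch that folds with U-rich stretches into a triple helix, after RNase P has cut off a tRNA-like RNA. The MALAT1 stretch (plus strand, chr11:65506023-65506180) has a run of 13 A in capitals, preceded by capital runs of at least 4 T and followed by the tRNA-like part. The last 100 bases of long NEAT1 (chr11:65445441-65445540) are shown with runs of at least 4 A or T in capitals. The short NEAT1 form is polyadenylated at base 3716 of the long form's 22743 bases, after AATAAA, the poly-A signal, in capitals (chr11:65426474-65426533). NORAD, whose end is on the minus strand at chr20:36045622-36045681, and TUG1, whose end is at chr22:30979336-30979395, also hold the signal in their last 60 bases. KCNQ1OT1 does not hold these letters in its last 60 bases.
MALAT1 A-rich end: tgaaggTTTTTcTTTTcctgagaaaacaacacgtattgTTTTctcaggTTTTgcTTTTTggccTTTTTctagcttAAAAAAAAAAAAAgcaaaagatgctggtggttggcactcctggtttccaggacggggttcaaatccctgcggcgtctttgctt
NEAT1 long form end: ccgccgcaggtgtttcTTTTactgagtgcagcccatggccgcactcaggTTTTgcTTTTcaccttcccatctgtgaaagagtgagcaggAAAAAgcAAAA
NEAT1 short form end: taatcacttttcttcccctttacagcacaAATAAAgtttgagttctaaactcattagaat
NORAD end: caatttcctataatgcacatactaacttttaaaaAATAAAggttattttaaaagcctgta
TUG1 end: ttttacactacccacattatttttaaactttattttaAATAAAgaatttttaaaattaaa

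**Figure D1:**
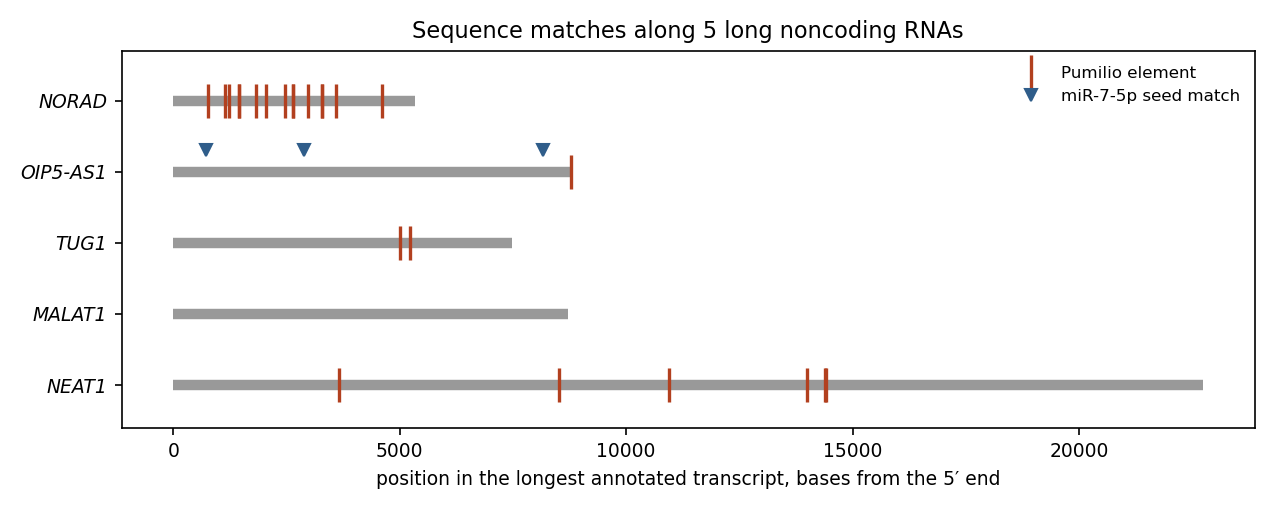
Each grey bar is the longest annotated transcript of 1 lncRNA, drawn to scale in bases from its 5′ end, with Pumilio elements (TGTANATA) as red ticks and miR-7-5p seed matches as blue triangles. The 15 elements of NORAD lie between bases 761 and 4599, MALAT1 has 0, NEAT1 6, OIP5-AS1 1 and TUG1 2, and OIP5-AS1 has the 3 seed matches.

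Levels are given in FPKM, fragment counts scaled to gene length and library size, as the authors deposited them. Depth was 17204498 to 23284592 reads a library. NORAD ranked 3 among lncRNA genes by its mean over all libraries, TUG1 ranked 26, OIP5-AS1 74, NEAT1 76, MALAT1 217 and KCNQ1OT1 5680. By this rank the description as abundant did not hold for KCNQ1OT1, and 5 of the 6 genes passed the filter of a mean of at least 1 FPKM. The ranks are those of RNA selected with poly-T beads. MALAT1 and long NEAT1 are known to lack a poly-A tail, so their ranks need not reflect their levels in the cells. The capture of RNA without a tail was not tested. The 12833 genes that passed were tested with limma on log2(FPKM + 1), a scale on which the change of low genes is understated, and 943 of them were lncRNAs. A call needed an adjusted p under 0.05. Of the HEK293 markers, VIM averaged 67.8 ± 5.03 FPKM in Y483E and 60.5 ± 0.902 FPKM in Y483F, KRT8 46.1 ± 0.904 and 40.7 ± 2.63 FPKM, and NEFL 45.6 ± 5.65 and 39.6 ± 1.51 FPKM (SD, n = 3 each). Only 5 of the 7 HEK293 markers passed the filter. CDH2 was called higher in Y483E by DESeq2, and VIM, KRT8, NEFL and CDH2 by limma and edgeR in the libraries numbered 4 and 5. Of all genes, DESeq2 called 1.27%, and in numbers 4 and 5 limma called 5.71% and edgeR 15%. Among 9 markers of other cell types, 3 were at 0 in every library (PTPRC, CD3E and COL1A2) and only ACTA2 passed the filter, at 2.02 FPKM in Y483E and 2.16 FPKM in Y483F. CDH1 averaged 0.779 and 0.570 FPKM and COL1A1 0.657 and 0.678 FPKM. TNS2 itself averaged 0.948 ± 0.169 FPKM in Y483E and 1.13 ± 0.0534 FPKM in Y483F, and its reads cannot be assigned to transgene or endogenous gene.

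**Figure D2:**
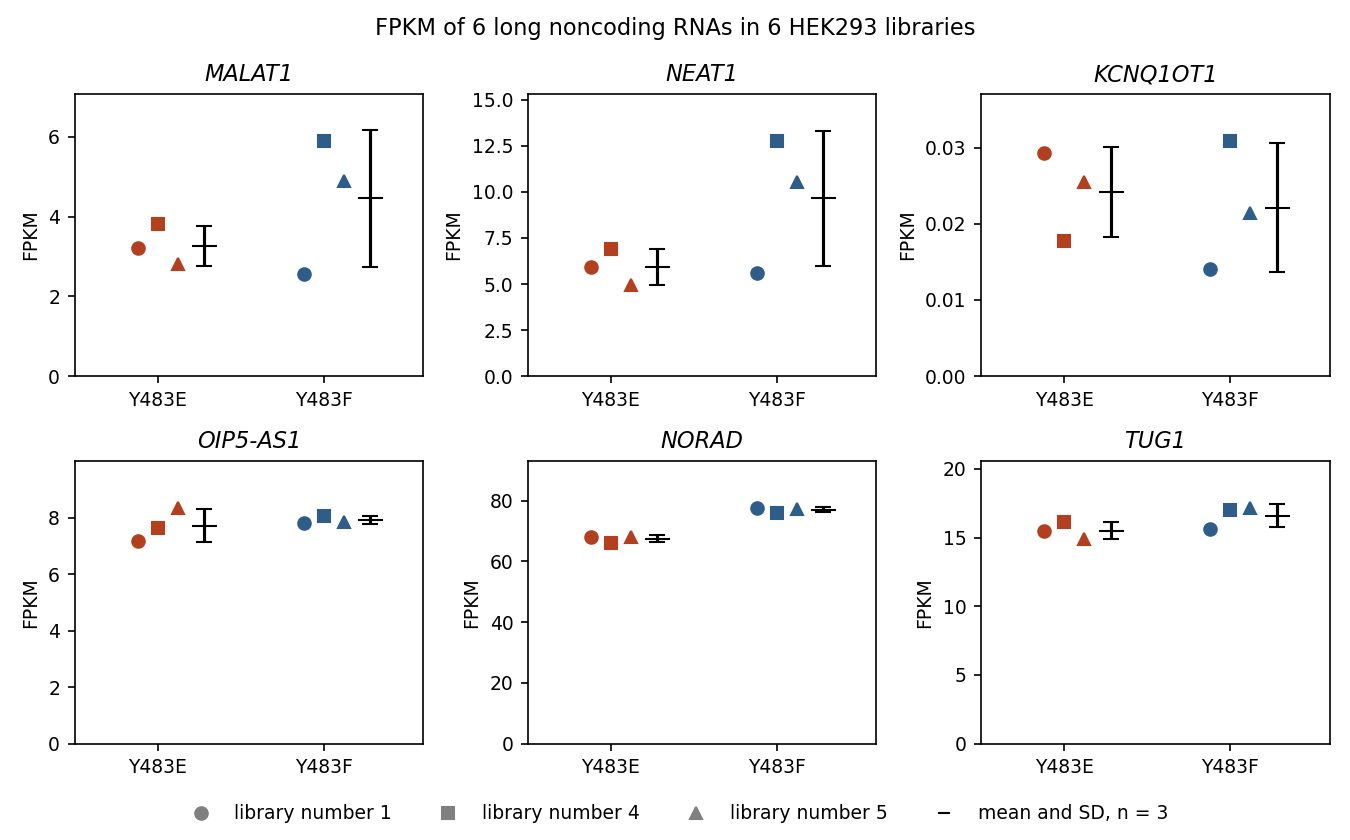
FPKM (y axes, from 0, a scale for each gene) of the 6 lncRNAs in Y483E and Y483F libraries, with symbols for the library number and a bar for the mean and SD of 3. NORAD is lower in all 3 Y483E libraries, at 66.1 to 68.2 against 76.1 to 77.6 FPKM, while Y483F replicates 2 and 3 stand above the other 4 libraries for NEAT1 and MALAT1.

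NORAD had the highest mean FPKM of the members and was the one whose lines separated most evenly. It had 68.1, 66.1 and 68.2 FPKM in Y483E replicates 1, 2 and 3, against 77.6, 76.1 and 77.4 FPKM in Y483F replicates 1, 2 and 3. Every Y483E library was below every Y483F library, and the mean was 12.4% lower in Y483E (67.5 ± 1.15 against 77.0 ± 0.823 FPKM, SD, n = 3 each). The exact two-sided permutation test gave p = 0.1, the smallest that 3 libraries against 3 allow, and 7.37% of all tested genes likewise had all Y483E values below all Y483F values. Reads at NORAD numbered 21438 in Y483E and 22810 in Y483F, and its spread between libraries was close to counting error. Its coefficient of variation was 1.70% in Y483E and 1.07% in Y483F, where counting alone would give 1.19% and 1.15%.

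In limma, NORAD had a log2 fold change of -0.19 ± 0.037 (SE) and an adjusted p of 0.257 over all genes. No gene was called in this comparison (0% of 12833, with 1566 at an unadjusted p under 0.05), so the line difference of NORAD did not pass the threshold there. The call depended on the model. In edgeR's quasi-likelihood test on reads recovered from the FPKM values, where 0.0438% of 15992 genes were called, NORAD had an adjusted p of 0.150. DESeq2 on the same reads called 1.27% of 11241 genes, and NORAD was among them with an adjusted p of 0.0192 and a log2 fold change of -0.19. In the authors' deposited table the log2 fold change of NORAD was -0.19 with an adjusted p of 0.0217, from the same reads. With array weights, which give libraries unequal weight, limma called 14.7% of genes, NORAD (adjusted p = 0.0162) and NEAT1 (adjusted p = 0.0287) among them. With number 1 against 4 and 5 as a batch term edgeR called 0.969% of genes, and NORAD was the member called (adjusted p = 0.0351). NORAD was not called by limma with the same batch term (adjusted p = 0.143), nor with the library number as a block by edgeR (0.107) or limma (0.274). The size of the difference hardly moved with the library number. The log2 ratio of Y483E to Y483F was -0.19 between the replicates 1, -0.20 between the replicates 2 and -0.18 between the replicates 3.

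NORAD lies on chromosome 20 (ENSG00000260032, minus strand, 36045622 to 36050960) as a gene of 1 exon, and most tested genes of that chromosome also had lower values in Y483E. Among the 349 tested genes of chromosome 20, 278 had lower and 71 higher values in Y483E, with a median log2 fold change of -0.095, against 0.0070 over all tested genes. Of these genes 21.8% had a log2 fold change as low as that of NORAD or lower, against 8.80% of all tested genes. Y483E lay wholly below Y483F for 30.4% of them. The part of the chromosome-wide difference in the value of NORAD was not tested. Of the 3 tested genes within 100 kb of NORAD, 2 had higher and 1 lower values in Y483E. SCAND1, a zinc finger cofactor, had a log2 fold change of 0.05, EPB41L1, a membrane skeleton protein, 0.07 and PHF20, a chromatin reader, -0.05.

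The genes nearest to NORAD over the 6 libraries were FSCN1, the actin bundler fascin, OSER1 and URB1. Likeness was the root mean square difference of log2(FPKM + 1) after centring each gene, at 0.015 for FSCN1 and 0.021 for both OSER1 and URB1. FSCN1 had 51.4, 49.0 and 52.0 FPKM in Y483E replicates 1, 2 and 3, against 58.9, 56.5 and 57.9 FPKM in Y483F replicates 1, 2 and 3. OSER1 is also a chromosome 20 gene. Known protein partners of NORAD were not called by limma over all libraries, where 0% of genes were. PUM2, a Pumilio protein, averaged 14.0 ± 0.233 FPKM in Y483E and 14.1 ± 0.411 FPKM in Y483F (SD, n = 3 each). RBMX, an RNA-binding protein that NORAD is reported to bind, averaged 92.0 ± 0.420 FPKM in Y483E and 92.8 ± 1.09 FPKM in Y483F. TOP1, a DNA topoisomerase reported in the same complex, averaged 71.1 ± 3.35 FPKM in Y483E and 77.5 ± 2.58 FPKM in Y483F, and lies on chromosome 20 as well. In numbers 4 and 5 edgeR called TOP1 lower (-0.15, adjusted p = 0.0163), beside 7.98% of all genes. KHDRBS1, also called SAM68 and reported to help Pumilio proteins reach NORAD, averaged 117 ± 3.43 FPKM in Y483E and 113 ± 5.02 FPKM in Y483F.

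NEAT1 (ENSG00000245532, chromosome 11, 65422774 to 65445540, plus strand, 1 exon in its long form) varied most between libraries among the 5 tested members. It had 5.90, 6.88 and 4.94 FPKM in Y483E replicates 1, 2 and 3, against 5.62, 12.8 and 10.6 FPKM in Y483F replicates 1, 2 and 3. Y483F replicates 2 and 3 stood above the other 4 libraries, and Y483F replicate 1 lay within the Y483E range. MALAT1 (ENSG00000251562, 65497688 to 65506516), which lies 52148 bases beyond the end of NEAT1 on the same strand, was likewise highest in these 2 libraries. It had 3.20, 3.80 and 2.81 FPKM in Y483E replicates 1, 2 and 3, against 2.57, 5.91 and 4.90 FPKM in Y483F replicates 1, 2 and 3. For MALAT1, Y483F replicate 1 was the lowest of the 6 libraries. Among all tested genes, 15.2% had Y483F replicates 2 and 3 both above the other 4 libraries, and among tested lncRNAs 27.5% did.

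Over all 6 libraries neither gene differed past the threshold. NEAT1 averaged 5.91 ± 0.973 FPKM in Y483E and 9.65 ± 3.67 FPKM in Y483F (SD, n = 3 each), a limma log2 fold change of -0.57 ± 0.26 (SE) with an adjusted p of 0.431. MALAT1 averaged 3.27 ± 0.501 and 4.46 ± 1.71 FPKM, a log2 fold change of -0.31 ± 0.23 with a limma adjusted p of 0.624. The exact permutation p was 0.3 for NEAT1 and 0.4 for MALAT1. The spread was wider than counting error. The coefficient of variation of NEAT1 was 16.5% in Y483E and 38.0% in Y483F where counting alone would give 1.98% and 1.69%. In the authors' deposited table NEAT1 had a log2 fold change of -0.71 and an adjusted p of 0.405, and MALAT1 was not listed.

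The values were also compared by library number. Between the replicates 1 the log2 ratio of Y483E to Y483F was 0.06 for NEAT1 and 0.24 for MALAT1. In the libraries numbered 4 and 5 alone limma called 5.71% of all genes, and NEAT1 was lower in Y483E with a log2 fold change of -0.88 ± 0.16 and an adjusted p of 0.0459. MALAT1 had -0.58 ± 0.14 and a limma adjusted p of 0.0709 there. In edgeR on the recovered reads of these 4 libraries, which called 15% of 16308 genes, NEAT1 had -0.98 with an adjusted p of 5.9e-05 and MALAT1 -0.70 with an adjusted p of 0.00094. NORAD (-0.20, adjusted p = 0.00225) and TUG1 (-0.14, adjusted p = 0.0409) were lower by edgeR in this subset too. Thus 4 of the 6 members were called lower, beside 7.98% of all genes and 13.1% of 906 tested lncRNAs. OIP5-AS1 and KCNQ1OT1 were not called.

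**Figure D3:**
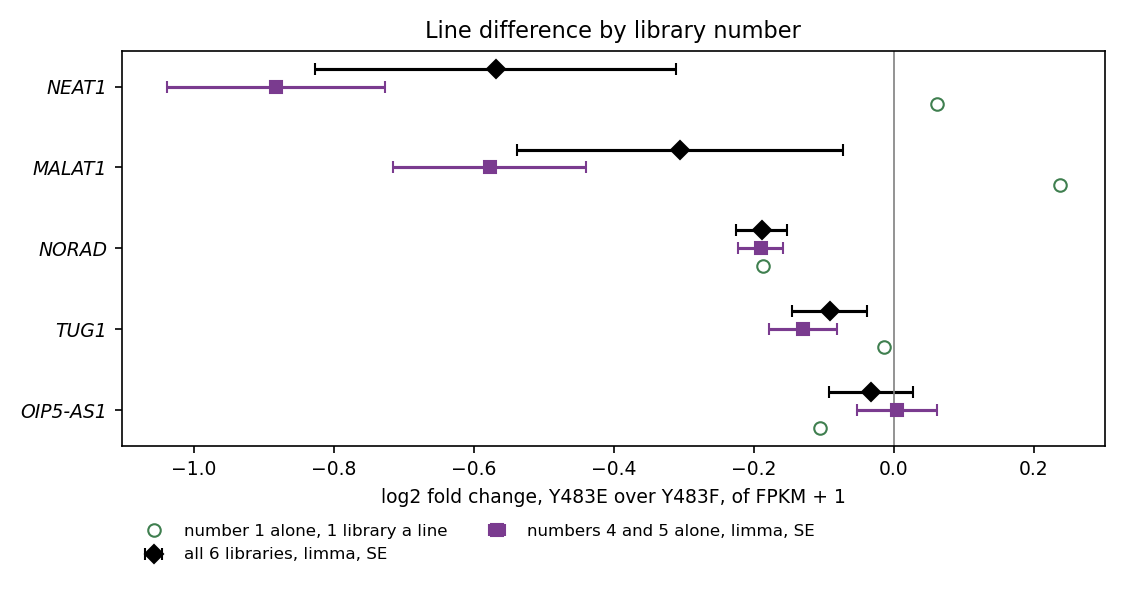
Log2 fold change of Y483E over Y483F (x axis, on FPKM + 1) for 5 lncRNAs, as limma estimates with SE for all 6 libraries (black) and for the libraries numbered 4 and 5 (purple), and as the plain ratio of the 2 libraries numbered 1 (open green). NEAT1 stands at -0.88 in numbers 4 and 5 and at 0.06 in number 1, while the 3 values of NORAD lie at -0.19.

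The difference of the line effects itself was tested as an interaction of line and library number, with the lone libraries numbered 1 assumed to vary like the others. Number 1 minus numbers 4 and 5, it was 0.94 ± 0.27 log2 units for NEAT1 and 0.82 ± 0.24 for MALAT1, with a limma adjusted p of 0.251 for each, in a fit that called 0.0623% of genes. In edgeR, where 2.3% of 15992 genes were called, it was 1.06 for NEAT1 with an adjusted p of 0.00889 and 1.03 for MALAT1 with an adjusted p of 0.0211. DESeq2 gave 1.05 and 1.03 with adjusted p-values of 0.440 and 0.393. For NORAD the limma value was 0.0036 ± 0.056, with an adjusted p of 0.984. Number 1 against numbers 4 and 5 over both lines gave -0.46 ± 0.23 for NEAT1 and -0.43 ± 0.20 for MALAT1, with limma adjusted p-values of 0.345 and 0.315, and limma called 0% of genes in this comparison, with 2410 at an unadjusted p under 0.05 and 231 called by edgeR. Without Y483F replicate 1 these values were 0.014 for NEAT1 and -0.025 for MALAT1. Without Y483E replicate 1 they were -0.93 and -0.84. Each of these fits leaves number 1 with 1 library and takes the value from 1 line.

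Although both genes varied, their ratio was nearly constant within each line. For each MALAT1 read, 4.75, 4.67 and 4.53 NEAT1 reads were recovered in Y483E replicates 1, 2 and 3, against 5.64, 5.58 and 5.55 in Y483F replicates 1, 2 and 3. The ratios of the lines did not overlap, and the replicates 1 differed in the same direction as the others. The counting error of a ratio was 3.55% to 5.51%, so closeness within a line finer than that cannot be resolved. The 95% counting intervals of the replicates 1 overlapped, at 4.32 to 5.23 in Y483E and 5.07 to 6.29 in Y483F. The mean ratio was 4.65 ± 0.111 in Y483E and 5.59 ± 0.0463 in Y483F (SD, n = 3 each), with an exact two-sided permutation p of 0.1, the smallest possible. Over summed reads the Y483E ratio was 0.834 times that of Y483F, with a 95% counting interval of 0.779 to 0.893 that does not cover the spread between libraries. Among all 440391 pairs of tested lncRNA genes above 0 in every library, the longer over the shorter, 8.69% had ratios in Y483E that were all below those in Y483F. How many pairs had a ratio as constant within a line was not counted.

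**Figure D4:**
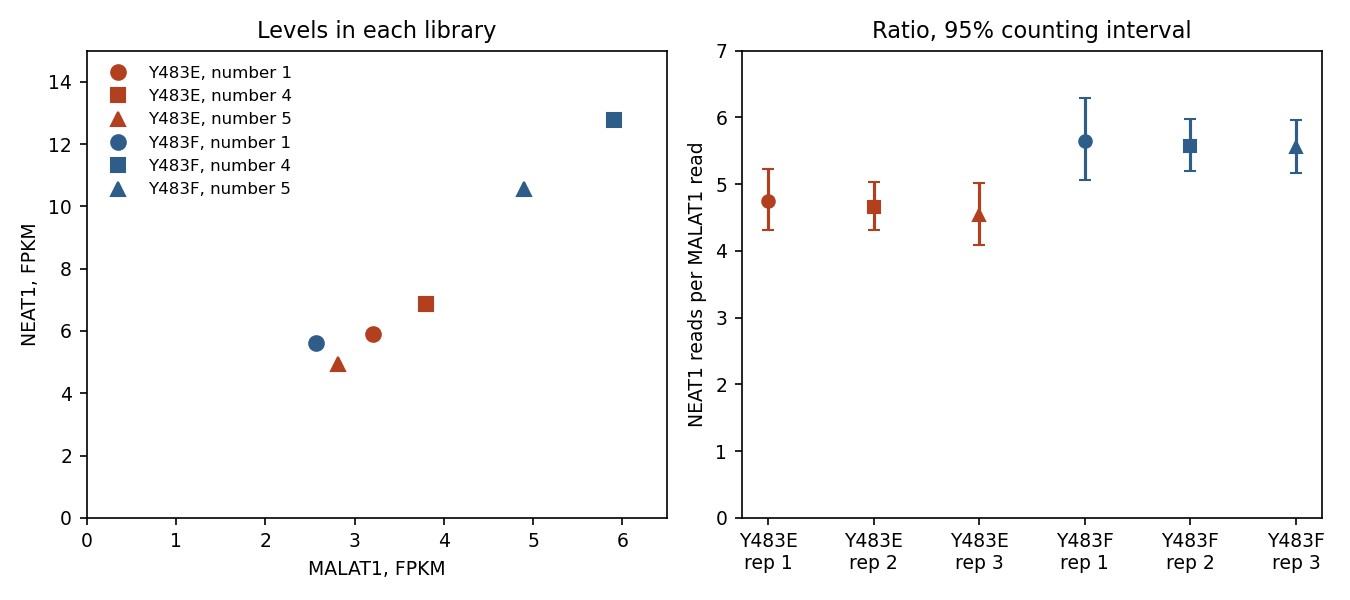
Left, NEAT1 against MALAT1 in FPKM, 1 point a library, and right, NEAT1 reads per MALAT1 read with 95% counting intervals for the Y483E and then the Y483F libraries. The ratios lie between 4.53 and 4.75 in Y483E and between 5.55 and 5.64 in Y483F, while the levels of both genes differ among libraries of 1 line by up to 2.30-fold for MALAT1.

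The gene model limits what the NEAT1 values mean. The deposited FPKM values divide NEAT1 reads by 22767 bases, 6.13 times the length up to the end of the short form, and reads in the shared first 16.3% of the long form come from both forms. Short and long NEAT1 were therefore not separated. Overlap with other genes was small. No exon of NEAT1 overlaps a gene on the opposite strand, and 4.49% of the MALAT1 exon bases do, at AP000769.2, which was listed at 0 in every library.

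Of the other genes near NEAT1 and MALAT1, none was called by limma over all libraries, where 0% of genes were. LTBP3, which binds the growth factor TGF-beta and lies within 100 kb of both, averaged 5.44 ± 0.382 FPKM in Y483E and 6.48 ± 1.47 FPKM in Y483F (SD, n = 3 each). It was lower in numbers 4 and 5 by edgeR, with a log2 fold change of -0.38 and an adjusted p of 0.00096. There edgeR called 7.98% of all genes lower. FRMD8, 9249 bases from NEAT1, had a limma log2 fold change of -0.02. SSSCA1, MAP3K11, FAM89B, DPF2 and TIGD3, also within 100 kb of NEAT1 or MALAT1, had log2 fold changes between -0.13 and 0.16. By likeness over the 6 libraries, MALAT1 was nearest to SLC25A27 at 0.040, a mitochondrial carrier, and to AP001107.4 and GABBR1, a GABA receptor subunit, both at 0.056. NEAT1 was nearest to GNB3, a G protein subunit, at 0.053, PABPC1L, a poly-A binding protein of oocytes, at 0.063 and AMH, a hormone of the gonads, at 0.064. NEAT1 and MALAT1 were 0.137 apart. Among all tested genes, NEAT1 ranked 98 in likeness to MALAT1, and MALAT1 ranked 37 in likeness to NEAT1. AMH had 48.0, 55.3 and 41.3 FPKM in Y483E replicates 1, 2 and 3, against 43.0, 86.1 and 78.6 FPKM in Y483F replicates 1, 2 and 3.

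The messenger RNAs of proteins of both nuclear bodies were measured too. Of 20 paraspeckle proteins, all tested, 10 had higher and 10 lower values in Y483E, with a median log2 fold change of -0.0093, and none passed in limma. NONO, a core paraspeckle protein that binds NEAT1, averaged 226 ± 2.03 FPKM in Y483E and 233 ± 3.90 FPKM in Y483F (SD, n = 3 each), HNRNPA1 averaged 586 ± 24.7 and 576 ± 13.0 FPKM, and HNRNPK averaged 204 ± 6.34 and 203 ± 11.2 FPKM. In numbers 4 and 5, edgeR called 2 of the 20 higher and 2 lower, beside 15% of all genes called in either direction. Among them were NUDT21 and SMARCA4, which were higher, and TARDBP, which was lower.

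Of 15 nuclear speckle proteins, all tested, 1 had higher and 14 lower values in Y483E. The median log2 fold change was -0.13 over all libraries, -0.0044 between the replicates 1 and -0.20 in numbers 4 and 5, against 0.0070, -0.0043 and 0.015 over all tested genes. None passed in limma over all 6 libraries, and DESeq2 called 2 of the 15 lower, beside 0.649% of all genes. These were SON, a speckle scaffold, with an adjusted p of 0.0103 and SRSF6, a splicing factor, with an adjusted p of 0.0433. In numbers 4 and 5 limma called 6 of the 15 lower, beside 3.01% of all genes, and edgeR called 11 lower, beside 7.98% of all genes. Neither called any of them higher. The 11 genes were SRRM2, PNN, SRSF6, SRSF5, SON, PRPF4B, SRSF11, SRRM1, SRSF2, ACIN1 and RBM25, with edgeR log2 fold changes between -0.62 and -0.15. SRSF3, a splicing factor, was the one with a higher value, at 82.1 ± 2.98 FPKM in Y483E and 79.6 ± 4.86 FPKM in Y483F (SD, n = 3 each). SRRM2, the other speckle scaffold, had a log2 fold change of -0.61 in numbers 4 and 5 with a limma adjusted p of 0.0320. It averaged 66.1 ± 4.40 FPKM in Y483E and 88.1 ± 19.7 FPKM in Y483F over all libraries (SD, n = 3 each), and SRSF2 averaged 83.3 ± 6.16 and 91.4 ± 1.12 FPKM. A test of whether these proteins differ from other genes was not made.

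Other RNA classes were also highest in Y483F replicates 2 and 3, the libraries with most NEAT1 and MALAT1. Mitochondrially encoded genes took 1.67, 1.64 and 0.900% of reads in Y483E replicates 1, 2 and 3, against 1.55, 2.64 and 2.51% in Y483F replicates 1, 2 and 3. All 13 had lower mean values in Y483E, with a median log2 fold change of -0.69 over all libraries, 0.12 between the replicates 1 and -1.11 in numbers 4 and 5, where edgeR called 13 of 13 lower, beside 7.98% of all genes, and limma called 0 of 13. MT-CO2, a subunit of cytochrome oxidase, was called by edgeR at -0.87 with an adjusted p of 0.00218, and MT-CO1 at -1.02 and MT-CO3 at -1.01. Small nucleolar RNA genes, whose RNAs mostly carry no poly-A tail, summed to 309, 314 and 255 FPKM in Y483E replicates 1, 2 and 3, against 338, 461 and 433 FPKM in Y483F replicates 1, 2 and 3. Of the 943 small nucleolar RNA genes, 744 were at 0 in every library and 61 passed the filter. Together they took 0.00348% to 0.00598% of the reads of a library, so their sum rests on few reads. All other lncRNA genes together took 1.08, 1.15 and 1.05% of reads in Y483E and 1.04, 1.32 and 1.19% in Y483F. The part of these classes in the results for both genes was not tested. NORAD, at 77.6 FPKM in Y483F replicate 1, was not highest in replicates 2 and 3. The replication-dependent histone genes make RNAs that also mostly carry no poly-A tail, and forms with a tail were not told apart from them. Over 9 tested genes the median log2 fold change was 0.0014, with 0.21 between the replicates 1 and -0.045 in numbers 4 and 5. HIST1H2BK averaged 188 ± 17.6 FPKM in Y483E and 191 ± 7.61 FPKM in Y483F, HIST1H1C 31.5 ± 5.20 and 27.4 ± 1.80 FPKM, and HIST2H2AC 5.36 ± 0.614 and 3.70 ± 0.934 FPKM (SD, n = 3 each). Of 6 entries for small RNAs of RNA polymerase III, 5 were at 0, and RN7SL2, of the signal recognition particle, had a limma log2 fold change of 0.53 and was not called.

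**Figure D5:**
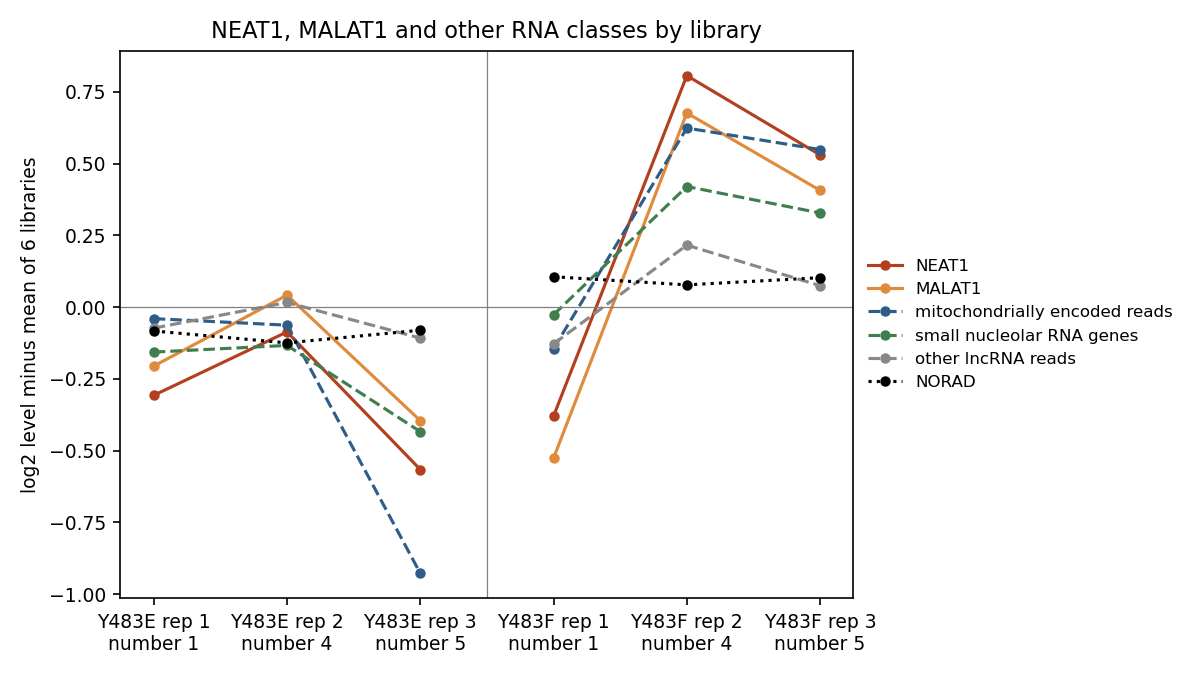
Log2 level minus the mean of the 6 libraries (y axis) for NEAT1, MALAT1, NORAD and 3 RNA classes, with Y483E libraries on the left and Y483F libraries on the right. Lines join the points of 1 measure within a line and stand for no order of the replicates. NEAT1, MALAT1, the mitochondrially encoded reads, the small nucleolar RNA genes and the other lncRNA reads are all highest in Y483F replicates 2 and 3, while NORAD separates the lines only.

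Genes of the pathway that makes the ends of MALAT1 and long NEAT1, and of nuclear RNA decay, were measured as well. Of 13 tested genes of RNase P and tRNA-like 3′ end processing, 4 had higher and 9 lower values in Y483E, with a median log2 fold change of -0.034 and 0 calls over all libraries in limma, edgeR and DESeq2, which called 0%, 0.0438% and 1.27% of all genes. In numbers 4 and 5 edgeR called POP1 (-0.21) and RPP14 (-0.26) lower, beside 7.98% of all genes. POP7, a subunit of RNase P, averaged 112 ± 5.70 FPKM in Y483E and 103 ± 2.44 FPKM in Y483F (SD, n = 3 each). ELAC2, which cuts after tRNA-like ends, averaged 33.0 ± 2.90 and 33.8 ± 1.6 FPKM, and the subunit POP5 24.3 ± 0.564 and 24.1 ± 0.339 FPKM. METTL16, a methyltransferase known to bind the MALAT1 triple helix, averaged 7.83 ± 0.184 and 8.01 ± 0.0565 FPKM. Of 8 nuclear decay genes, 2 had higher and 6 lower values, with a median of -0.023 and 0 limma calls. PABPN1, the nuclear poly-A binding protein, averaged 52.5 ± 4.04 FPKM in Y483E and 55.2 ± 4.59 FPKM in Y483F. MTREX, the exosome helicase, averaged 24.6 ± 1.55 and 24.8 ± 1.80 FPKM, and EXOSC10, an exosome nuclease, 22.1 ± 0.685 and 22.7 ± 0.876 FPKM. In numbers 4 and 5 edgeR called ZFC3H1, a part of the nuclear exosome targeting machinery, lower (-0.30, adjusted p = 0.00771).

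TUG1 (ENSG00000253352, chromosome 22, 30969245 to 30979395, plus strand, 3 exons in its longest transcript) had the second highest mean FPKM of the members. It had 15.5, 16.1 and 14.9 FPKM in Y483E replicates 1, 2 and 3, against 15.6, 17.0 and 17.1 FPKM in Y483F replicates 1, 2 and 3. The lines overlapped, since Y483E replicate 2 was above Y483F replicate 1. limma gave a log2 fold change of -0.09 ± 0.053 (SE, adjusted p = 0.517). The exact permutation test on FPKM gave p = 0.2. MORC2, a chromatin silencing protein whose gene lies 947 bases from TUG1 on the opposite strand, averaged 13.4 ± 0.736 FPKM in Y483E and 14.0 ± 0.520 FPKM in Y483F (SD, n = 3 each). SMTN, a smooth muscle cytoskeletal protein 84710 bases away, averaged 4.24 ± 0.126 FPKM in Y483E and 5.43 ± 0.606 FPKM in Y483F, a limma log2 fold change of -0.29 with an adjusted p of 0.278. DESeq2 called it lower with an adjusted p of 0.0205, beside 0.649% of all genes called lower. In numbers 4 and 5 edgeR called SMTN lower too (-0.46, adjusted p = 0.00025), beside 7.98% of all genes. The remaining tested genes within 100 kb, OSBP2 and EIF4HP2, had limma log2 fold changes of -0.03 and 0.08.

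Repressive chromatin enzymes, with which TUG1 and KCNQ1OT1 have been linked, were read from a list of 10 genes, all tested. Of these, 8 had higher and 2 lower values in Y483E, with a median log2 fold change of 0.031. limma, edgeR and DESeq2 called 0 of them, beside 0%, 0.0438% and 1.27% of all genes. DNMT1, the maintenance DNA methyltransferase, averaged 58.1 ± 0.905 FPKM in Y483E and 57.1 ± 2.92 FPKM in Y483F (SD, n = 3 each). KDM1A, a histone demethylase, averaged 47.9 ± 2.18 and 47.5 ± 1.09 FPKM, and RING1, a Polycomb subunit, averaged 37.4 ± 0.0325 and 37.3 ± 1.64 FPKM.

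OIP5-AS1 (ENSG00000247556, chromosome 15, 41283990 to 41309737, plus strand, 4 exons in its longest transcript) had the smallest line difference of the tested members. It had 7.18, 7.62 and 8.33 FPKM in Y483E replicates 1, 2 and 3, against 7.80, 8.06 and 7.83 FPKM in Y483F replicates 1, 2 and 3. The Y483F libraries all lay within the range of the Y483E ones. limma gave a log2 fold change of -0.03 ± 0.060 (SE, adjusted p = 0.857), and the sign turned to 0.0043 in numbers 4 and 5. OIP5, a centromere protein gene on the opposite strand, overlaps 3.71% of the OIP5-AS1 exon bases, and reads of 1 strand could have been counted at the other, since the protocol leaves it unclear whether strand was kept. It averaged 15.4 ± 2.00 FPKM in Y483E and 15.6 ± 1.05 FPKM in Y483F (SD, n = 3 each). ELAVL1, an RNA-binding protein that OIP5-AS1 is reported to bind, averaged 36.3 ± 0.804 and 34.1 ± 0.489 FPKM, with a limma adjusted p of 0.412. The other tested genes within 100 kb (CHP1, NUSAP1, NDUFAF1 and RTF1) had limma log2 fold changes between -0.07 and 0.11. The level of miR-7 itself was not analysed here.

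KCNQ1OT1 (ENSG00000269821, chromosome 11, 2608328 to 2699994, minus strand, 1 exon) lies inside the KCNQ1 gene, which is on the opposite strand, and had few reads. It had 0.0293, 0.0178 and 0.0255 FPKM in Y483E replicates 1, 2 and 3, against 0.0140, 0.0309 and 0.0214 FPKM in Y483F replicates 1, 2 and 3. These are 48, 38 and 43 reads, against 22, 51 and 40 reads, over a gene model of 91667 bases. The lines overlapped, with an exact permutation p of 0.8, and counting alone would give a coefficient of variation of 15.3% in Y483E and 17.3% in Y483F. It was outside the limma test. For edgeR, the SE after ± was worked out from the fold change and the F statistic. edgeR gave a log2 fold change of 0.10 ± 0.30 with an adjusted p of 0.921. The sign turned in numbers 4 and 5, where edgeR gave -0.29 ± 0.28 with an adjusted p of 0.543. The edgeR interaction of line and library number was 1.36 ± 0.52, larger than those of NEAT1 and MALAT1 but not called (unadjusted p = 0.0195, adjusted p = 0.208). No line difference was detected in these few reads, and the size of difference that they could show was not tested. Exons on the opposite strand overlap 1.23% of the KCNQ1OT1 exon bases. Since it is unclear whether strand was kept, reads from KCNQ1 could have been counted at KCNQ1OT1. KCNQ1 averaged 0.472 ± 0.164 FPKM in Y483E and 0.390 ± 0.0524 FPKM in Y483F (SD, n = 3 each) and was below the filter.

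Of 13 other genes of the KCNQ1 imprinted domain, 5 were tested, 3 with higher and 2 with lower values in Y483E, and none was called by limma, edgeR or DESeq2. CD81, a tetraspanin at the edge of the domain, averaged 27.0 ± 1.16 FPKM in Y483E and 26.2 ± 0.504 FPKM in Y483F (SD, n = 3 each). NAP1L4, a histone chaperone, averaged 32.8 ± 0.309 and 33.2 ± 0.243 FPKM, and TSSC4, a splicing factor, averaged 15.3 ± 1.02 and 14.5 ± 0.855 FPKM. CDKN1C, a cell cycle inhibitor and known target of silencing by KCNQ1OT1, averaged 0.381 ± 0.187 FPKM in Y483E and 0.419 ± 0.197 FPKM in Y483F and was below the filter.

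Other well-known regulatory lncRNAs were read from a list of 25 genes. Of these, 13 were tested, 9 with higher and 4 with lower values in Y483E, with a median log2 fold change of 0.05, against -0.06 over all 943 tested lncRNAs. None was called over all libraries by limma. DANCR, the most abundant, averaged 34.8 ± 0.102 FPKM in Y483E and 30.9 ± 2.47 FPKM in Y483F (SD, n = 3 each). LINC00665 averaged 15.3 ± 0.791 and 14.9 ± 0.577 FPKM, and HOTAIRM1, an RNA of the HOXA cluster, 7.99 ± 0.542 and 7.56 ± 0.546 FPKM. In numbers 4 and 5 edgeR tested 19 of the list, some of them below the filter. DANCR was called higher there, with a log2 fold change of 0.24 and an adjusted p of 0.00407. Of 906 lncRNAs that averaged at least 1 FPKM, 13 were called higher and 13.1% lower. edgeR called 4 others of the list lower. Among the 4 was MIR17HG, the host of the miR-17-92 cluster, at -1.06 with an adjusted p of 0.00077. DLEU2 and MIR22HG, hosts of other microRNAs, were called there at -0.35 and -0.99, and FTX at -0.42. limma called DANCR in numbers 4 and 5 (adjusted p = 0.0337) and none of the list lower, with an adjusted p of 0.0592 for MIR17HG.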

How the data were processed

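The authors deposited FPKM values for every gene. Their second table lists 1652 genes with raw read counts, a signal (the authors' counts divided by 1 size factor a library), log2 fold changes and unadjusted and adjusted p-values, per the file headers. The submitters' processing notes name featureCounts 1.5.0-p3, HISAT2 2.0.5, DESeq, DESeq2 and StringTie 1.3.3b, without roles. No build is named (not given in the sources used here). RNA was selected with poly-T beads, and per the labels' protocols the libraries may be directional or not.

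FPKM times gene length times a library total gave whole reads for 100% of values, within 0.01 of a read. The totals were worked out from the authors' listed counts. The recovered reads equalled those counts for all 1652 genes.

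The main test was limma 3.58.1 (trend, two-sided) on log2(FPKM + 1) of genes that averaged at least 1 FPKM, Benjamini-Hochberg adjusted over 12833 genes, with a threshold of 0.05. Recovered reads were tested with edgeR 4.0.16 (quasi-likelihood) and DESeq2 1.42.0 in R 4.3.3. All were tested on simulated data for the line comparison only, with the same relative spread beyond counting error for every gene. The other comparisons and settings were not simulated. Counting intervals cover counting error only.

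Other settings were a pseudocount of 0.1, no filter, a mean of at least 5 FPKM, quantile normalization, array weights, the library number as a block or batch term, libraries numbered 4 and 5 alone, and leaving out each library. edgeR in numbers 4 and 5, with the batch term and with the block were added after the data were seen. The lists of genes and the members were chosen with earlier results of these data known. Named beside the members were TNS2, per list up to 3 genes with the highest mean and those called between the lines (of the mitochondrial genes only the first), tested genes within 100 kb, and the 3 genes most like each member whose SD of log2(FPKM + 1) was at least the median of tested genes. OIP5-AS1 and TUG1 were below it. Genes named for their known tie to a member (PUM2, ELAVL1, METTL16 and CDKN1C) are outside this rule and were chosen after their values were seen. Some genes that the rule covers are not reported here.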

Additional observations from a re-analysis of the deposited data

Results flagged for a closer look

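The line difference of NEAT1 and of MALAT1 differed between library number 1 and numbers 4 and 5 by a test of the interaction in edgeR on recovered reads. The difference of the Y483E over Y483F log2 ratios, number 1 minus numbers 4 and 5, was 1.06 for NEAT1 (adjusted p = 0.00889) and 1.03 for MALAT1 (adjusted p = 0.0211). limma gave 0.94 and 0.82 and did not call them (adjusted p = 0.251 for each), and neither did DESeq2. Number 1 is 1 library a line. The edgeR test of the interaction called 2.3% of 15992 genes. Y483F replicates 2 and 3 both stood above the other 4 libraries for 15.2% of tested genes and 27.5% of tested lncRNAs. With 3 libraries a line, no search for a single outlying library within a line was made.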

How the results depend on the processing

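Over all 6 libraries limma called 0 genes between the lines in every setting other than array weights (1888), and 733 in numbers 4 and 5 alone. The count was 7 by edgeR, 143 by DESeq2, 155 by edgeR with the batch term, 6 by edgeR with the replicate block and 2454 by edgeR in numbers 4 and 5. limma with the replicate block called 0. Same-numbered libraries correlated at 0.056, 0.139 and -0.095 in their deviations from the mean of their line. With 3 libraries a line, such values cannot show whether the numbers pair the libraries. For number 1 against 4 and 5 the count was 0, with 14 at a filter of 5 FPKM, 231 by edgeR, 250 by DESeq2 and 0 to 22 when each library was left out. For the interaction it was 8, with 242 without a filter, 32 at 5 FPKM, 368 by edgeR, 112 by DESeq2 and 5 to 169 when a library numbered 4 or 5 was left out. It cannot be fitted without a library numbered 1.

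NORAD, not called by limma, was called by DESeq2 (-0.19, adjusted p = 0.0192), with array weights in limma (-0.20, 0.0162), in numbers 4 and 5 by limma (-0.19, 0.0434) and edgeR (-0.20, 0.00225), and by edgeR with the batch term (-0.20, 0.0351). NEAT1 was called with array weights in limma (-0.73, 0.0287) and in numbers 4 and 5 by limma (-0.88, 0.0459) and edgeR (-0.98, 5.9e-05). There edgeR also called MALAT1 (-0.70) and TUG1 (-0.14). The interactions of NEAT1 (1.06) and MALAT1 (1.03) were called by edgeR.

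When each library was left out, log2 fold changes ranged from -0.88 to -0.35 for NEAT1, -0.59 to -0.11 for MALAT1, -0.20 to -0.17 for NORAD, -0.13 to -0.065 for TUG1 and -0.083 to 0.012 for OIP5-AS1, which turned sign without Y483E replicate 1 and stood at 0.0043 in numbers 4 and 5. KCNQ1OT1, at 0.099 by edgeR, stood at -0.29 there. For the number comparison they ranged from -0.93 to 0.014 for NEAT1, turning without Y483F replicate 1, from -0.84 to -0.025 for MALAT1, and from 0.0078 to 0.026 for NORAD, which stood at -0.0077 under quantile normalization. The interaction of NORAD ranged from -0.018 to 0.025. NEAT1 reads per MALAT1 read stayed 0.885 to 0.994 lower in Y483E. The causes of these shifts were not tested. KCNQ1OT1 has the fewest reads.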
